A study of Mus musculus with 2 samples.

Results

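The 6 genes described here, *Myod1*, *Myf5*, *Myf6*, *Myog*, *Pax3* and *Pax7*, are the regulators of the skeletal muscle lineage, and they were followed in accessible chromatin of the embryonic mouse heart, a tissue that forms a different kind of striated muscle. They were taken by name from the annotation (GENCODE M21, GRCm38/mm10) and compared with all 21755 protein-coding genes on autosomes and the X chromosome. Wildtype (WT) hearts of FVB embryos at E11.5, with 49 to 51 somites, were profiled whole by ATAC-seq, which uses the Tn5 transposase to insert sequencing adapters into open chromatin. Each of the 2 replicates was made from a pair of hearts, and both replicates form a single group with no other tissue, treatment or genotype beside it. Replicates were therefore compared with each other and genes with genes, and no p-value was computed.

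*Myod1*, *Myf5*, *Myf6* (also known as *Mrf4*) and *Myog* encode basic helix-loop-helix (bHLH) factors that bind the E-box CANNTG together with E proteins and switch on muscle genes. *Myf5*, *Myod1* and *Myf6* commit cells to the lineage, and *Myog* acts later, in differentiation. *Pax3* and *Pax7* encode paired-box factors that act upstream in muscle progenitors, and both are also used in the dorsal neural tube and neural crest. Heart muscle forms without these 4 bHLH factors.

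A peak is an interval in which the reads of one replicate exceeded the genome-wide background, and its fold enrichment is the number of reads at its summit over that background, with 1 added to both. A shared region is the part of a replicate 1 peak covered by a replicate 2 peak. The lists held 118027 peaks in replicate 1 and 114783 in replicate 2, which left 98924 shared regions. Read totals were not part of the peak lists. A background of 2.68 reads in replicate 1 and of 2.98 in replicate 2 was recovered from the fold enrichments, and the weakest listed peaks had 9 reads at the summit in both, with a fold enrichment of 2.72 and 2.51. A locus without a peak was therefore one in which no peak was detected at this depth. In whole hearts, a few cells with an open site and many cells with a partly open site cannot be told apart.

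A start was called accessible where a shared region came within 1 kb of the outermost annotated 5′ end of the gene. *Myod1*, *Myf6* and *Pax3* had an accessible start, and *Myf5*, *Myog* and *Pax7* did not, which made 3 of 6 genes beside 64.0% of all protein-coding genes. With a q-value limit of 1e-10 in both replicates, only *Myf6* of the 6 remained, while the share of all protein-coding genes was 59.14%. At *Myf6*, the peak reaching into the window had a summit value of 11.4 in replicate 1 and 10.3 in replicate 2, although both summits lay beyond 1 kb. The only summit inside the *Myf6* window was one of replicate 1 at 3.80. The peak at *Pax3* reached 6.52 and 4.27, and the peak at *Myod1* 4.89 and 5.53. The order of *Pax3* and *Myod1* was opposite in the replicates, and the peak at *Myf6* was above both in each replicate, but *Myf6* was not accessible when summits of both replicates had to lie in the window. Among all accessible starts, whose median of the replicate means was 24.3, *Myod1* stood at percentile 4.18, *Pax3* at 4.86 and *Myf6* at 18.1. *Pax3* was the only member whose start base itself lay in a shared region, 1 of 6 beside 58.5% of protein-coding genes.

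**Figure D1:**
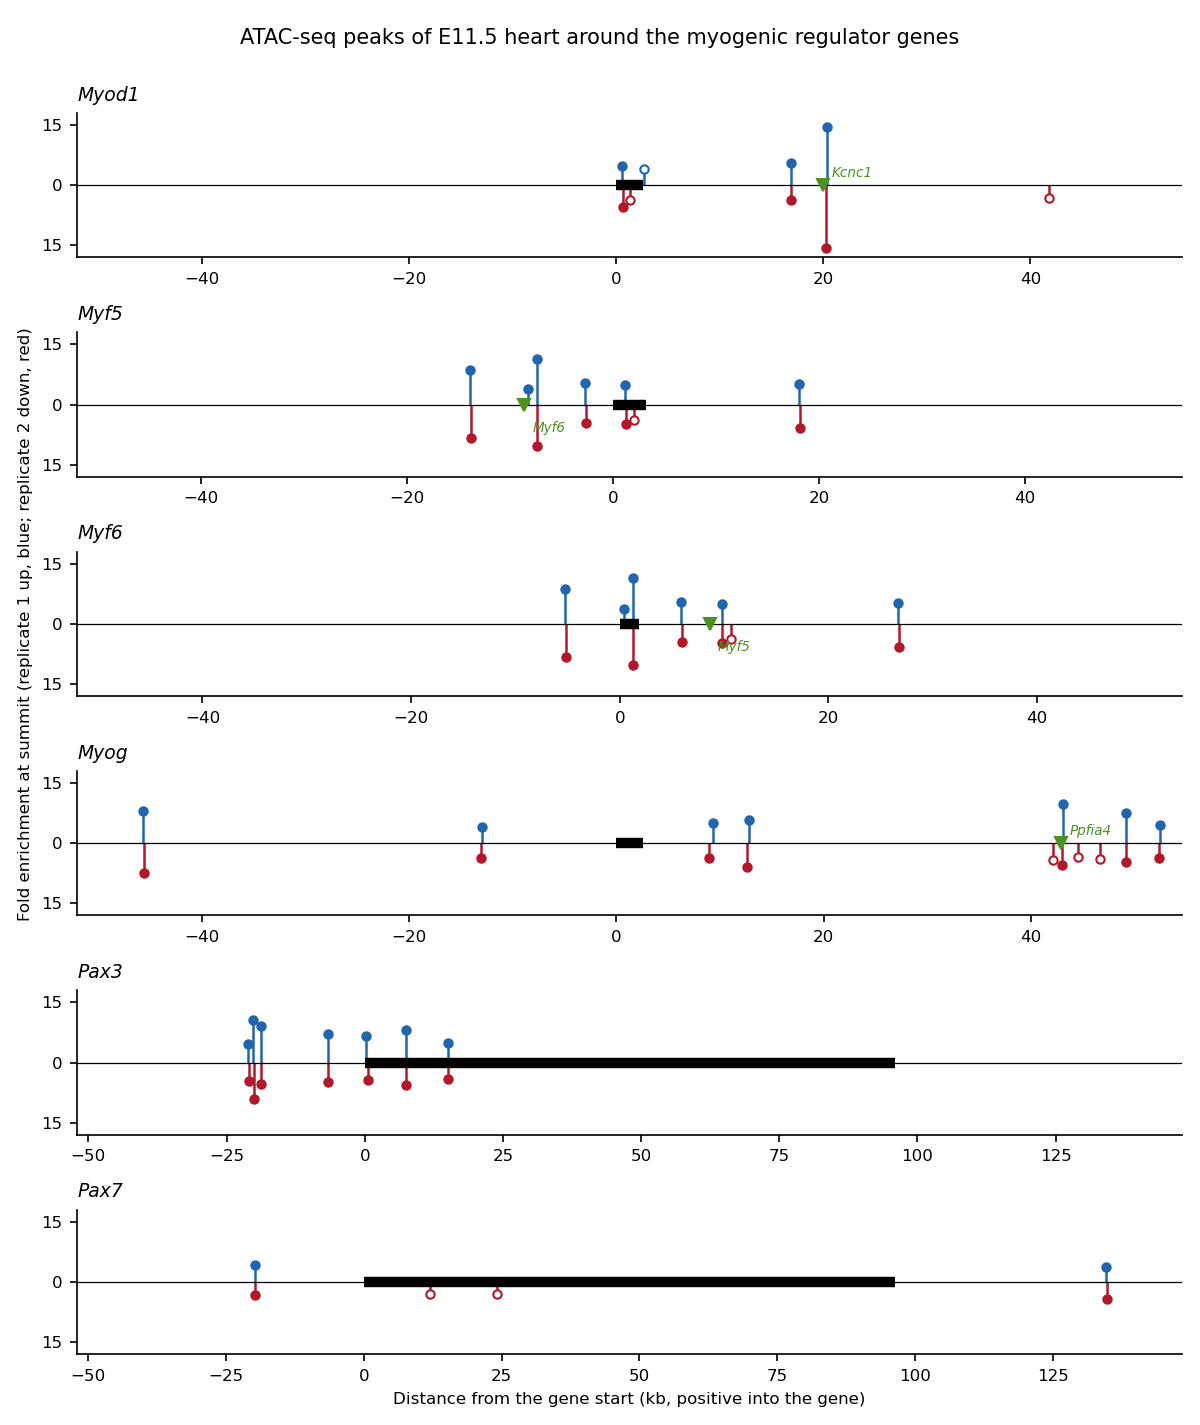
Peaks of both replicates around each gene, with fold enrichment at the summit on the y axis (replicate 1 upward in blue, replicate 2 downward in red) and distance from the gene start in kb on the x axis. Black bars are gene bodies, green triangles starts of neighbouring protein-coding genes, filled circles peaks that overlap a peak of the other replicate and open circles peaks that do not. The body and start of *Myog* and the body of *Pax7* hold no filled circle.

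*Myod1* (chr7:46376474-46379099, plus strand) is a commitment factor. Its only shared region within 50 kb upstream or in its body began 489 bp inside the gene, at chr7:46376963-46377341, with 17 reads at the summit in replicate 1 and 21 in replicate 2. Of the 379 bp of this region, 337 bp were coding sequence of the first exon, which encodes the bHLH domain of the protein. The 201 bp around its summits (chr7:46377023-46377223, plus strand, GRCm38.p6 sequence from RefSeq) are shown because the region lay on coding sequence and not on the promoter. Capitals mark CANNTG.
Myod1 first exon: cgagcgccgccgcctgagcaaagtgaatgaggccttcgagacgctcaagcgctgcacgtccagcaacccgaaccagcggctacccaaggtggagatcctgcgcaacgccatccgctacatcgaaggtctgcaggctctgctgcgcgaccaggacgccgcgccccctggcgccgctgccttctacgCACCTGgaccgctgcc
In the 150 bp on each side of the point midway between the summits, the ratio of observed to expected CpG was 0.966, against 0.480 in the 500 bp on each side of the start. A peak of replicate 1 at 2.7 kb from the start (4.07) and a peak of replicate 2 at 1.3 kb (3.77) had no counterpart in the other replicate. The remaining shared regions of the locus lay downstream. One was at 16.8 kb (chr7:46393179-46393401, 5.43 and 3.77). The other was at 20.2 kb (chr7:46396265-46397083), with 14.4 and 15.6 the highest of all regions around the 6 genes, and it lay at the start of *Kcnc1*, which encodes a voltage-gated potassium channel subunit.

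*Myf5* and *Myf6* are neighbours on chromosome 10, with starts 8603 bp apart on the minus strand, so their windows overlapped and held the same 6 shared regions. *Myf6* (chr10:107492853-107494737) had the strongest peak reaching into a start window among the 6 genes. The wider region there (chr10:107493179-107494181) ran over its later exons and the introns beside them, with 207 bp of coding sequence, 41 reads at the summit in replicate 1 and 40 in replicate 2. A narrower region of 230 bp (chr10:107494232-107494461) lay wholly in the coding part of its first exon. In replicate 1 it had a peak of its own, at 3.80. In replicate 2 a single wide peak spanned both regions, with its summit 883 bp from that of replicate 1. The summits of the wider region lay in the last intron of *Myf6* in both replicates. The centre of the wider region lay 1.1 kb inside the gene and these summits lay outside the 1 kb window, into which only the flank of the peak reached.

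The second strongest region of the pair lay outside protein-coding genes, 5.2 kb upstream of *Myf6* at chr10:107499645-107500211, with 8.69 in replicate 1 and 8.30 in replicate 2. Its summits were 55 bp apart. The 201 bp around them (chr10:107499857-107500057, plus strand) are given as the strongest upstream site of the pair.
Myf6 upstream 5.2 kb: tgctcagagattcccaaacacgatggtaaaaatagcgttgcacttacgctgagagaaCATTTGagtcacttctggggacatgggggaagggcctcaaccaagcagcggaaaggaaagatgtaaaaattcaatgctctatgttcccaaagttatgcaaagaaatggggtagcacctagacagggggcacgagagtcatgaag
*Myf5* (chr10:107482908-107486134) is the first of the 4 bHLH genes to be used in the embryo. It missed the rule narrowly. A region in its intron (chr10:107484900-107485121), with 4.89 and 4.78, ended 1013 bp from the start, and the replicate 2 peak alone reached into the 1 kb window. With a window of 2 kb, *Myf5* counted as accessible. A region 2.8 kb upstream of it (chr10:107488737-107489104) had 5.43 and 4.53, and one at 18.1 kb downstream (chr10:107467830-107468235) 5.16 and 5.78. The bases before the *Myf5* start held no peak and no CANNTG in the 250 bp of the RefSeq promoter table (chr10:107486135-107486384, minus strand, GRCm38.p6).
Myf5 promoter: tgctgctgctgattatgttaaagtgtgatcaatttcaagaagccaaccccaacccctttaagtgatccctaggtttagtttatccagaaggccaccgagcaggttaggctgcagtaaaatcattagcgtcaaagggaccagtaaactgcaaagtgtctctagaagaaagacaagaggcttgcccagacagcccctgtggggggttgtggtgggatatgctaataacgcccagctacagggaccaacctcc

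*Myog* (chr1:134289989-134292548, plus strand) encodes the differentiation factor myogenin. Neither replicate had a peak within 1 kb of its start or in its body, and the nearest shared region began 8783 bp away. The 235 bp before its annotated start (chr1:134289754-134289988, plus strand) come from the RefSeq promoter table (GRCm38.p6), shown without the bases that the annotation counts as transcribed.
Myog promoter: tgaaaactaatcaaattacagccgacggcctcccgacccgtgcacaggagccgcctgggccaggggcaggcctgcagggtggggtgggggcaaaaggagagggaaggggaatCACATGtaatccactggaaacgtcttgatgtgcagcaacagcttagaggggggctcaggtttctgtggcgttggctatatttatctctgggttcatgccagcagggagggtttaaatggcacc
These bases held 1 CANNTG. In all, the start window of *Myog* was mappable, since 93.6% of its 32-base words occurred once in the genome. The locus nevertheless held 7 shared regions, a density of 6.83 per 100 kb at percentile 61.0 of protein-coding loci. The region with the highest mean lay 45.6 kb upstream (chr1:134244207-134244622), with 8.15 in replicate 1 and 7.54 in replicate 2. Of the others, 3 belonged to *Ppfia4*, which encodes a liprin scaffold protein and lies downstream. Its start had 9.78 and 5.53 (chr1:134332773-134333356), an intronic region 5.70 and 6.03, and the region nearest to *Myog*, on an exon of *Ppfia4* (chr1:134298772-134299519), 5.16 and 3.77. A region 49.1 kb downstream (chr1:134338957-134339309) had 7.61 and 4.78. The remaining regions did not exceed 4.62. The regions of the *Myog* window thus lay at a distance from the gene on both sides.

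*Pax3* (chr1:78101267-78197134, minus strand) marks the progenitors that enter the limbs. The region at its start (chr1:78196416-78197307) had 23 reads at the summit in replicate 1 and 16 in replicate 2. It covered the start base, the 5′ untranslated part and 85 bp of coding sequence. A further 6 shared regions lay on both sides of it, and all 7 began within 20799 bp of the start. Upstream, the strongest was at 20.02 kb (chr1:78216608-78217708), with 10.6 and 9.05, flanked by regions with 9.24 and 5.28 (chr1:78215789-78216243) and with 4.62 and 4.53 (chr1:78217933-78218265). These 3 regions lay outside any protein-coding gene and more than 1 kb from the start of any annotated gene. The strongest had a GC content of 76.1% and a CpG ratio of 1.01 around its summits, the highest ratio of the 25 regions, and is shown for that reason (201 bp, chr1:78217197-78217397, plus strand).
Pax3 upstream 20.02 kb: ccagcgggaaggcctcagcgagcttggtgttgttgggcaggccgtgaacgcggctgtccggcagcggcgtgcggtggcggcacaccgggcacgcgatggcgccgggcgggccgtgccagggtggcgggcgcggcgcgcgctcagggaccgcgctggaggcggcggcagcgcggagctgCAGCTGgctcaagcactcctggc
Between this group and the start, a region 6.8 kb upstream (chr1:78203735-78204095) had 7.06 and 4.78. In the gene, intronic regions at 7.5 kb (chr1:78189512-78189854, 8.15 and 5.53) and at 15.04 kb (chr1:78181975-78182209, 4.89 and 4.02) completed the set. Replicate 1 was higher in 7 of the 7 regions of *Pax3*, in 19 of all 25 regions, and in 66.2% of the shared regions of the genome. The rest of the *Pax3* body, and the 50 kb beyond its 3′ end, held no shared region.

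*Pax7* (chr4:139737062-139833528, minus strand) marks muscle progenitors and later the satellite cells of adult muscle. It had the sparsest locus of the 6 genes. No peak lay within 1 kb of its start in either replicate, and no shared region lay in its body of 96467 bp. Among the 5000 protein-coding genes with a body of at least 50 kb, 217 (4.34%) had none. *Pax3*, with a body of about the same length, had 3, or 3.13 per 100 kb beside a median of 4.63 for these long genes. Replicate 2 had 2 peaks in the *Pax7* body, both with a fold enrichment of 3.02, and replicate 1 had none. The nearest shared region lay 19.8 kb upstream (chr4:139853194-139853364), with 15 reads at its summit in replicate 1 and 12 in replicate 2, and its 201 bp (chr4:139853170-139853370, plus strand) are given as the closest accessible sequence to the gene.
Pax7 upstream 19.8 kb: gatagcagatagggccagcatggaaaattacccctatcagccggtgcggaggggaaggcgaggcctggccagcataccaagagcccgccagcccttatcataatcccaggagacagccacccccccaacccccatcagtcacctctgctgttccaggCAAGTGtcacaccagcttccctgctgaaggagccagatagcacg
The other region (chr4:139698646-139698814, 3.80 and 4.27) lay 134.8 kb from the start, beyond the 3′ end. Both were among the weakest shared regions of the genome, at percentiles 6.28 and 9.81 of mean fold enrichment. With 98.1% of the 32-base words of the start window and 95.9% of those of the locus unique in the genome, reads could be placed on nearly all of it.

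Starts rich in CpG are open in most tissues, so the 6 genes were also described by their base composition. A start was called CpG-rich with a GC content of at least 50% and a ratio of observed to expected CpG of at least 0.6 over 500 bp on each side. *Pax3*, with a ratio of 0.669, and *Pax7*, with 0.638, met this rule. The bHLH genes did not, with 0.480 in *Myod1*, 0.406 in *Myf5*, 0.379 in *Myf6* and 0.344 in *Myog*. Of the CpG-rich starts of protein-coding genes, 95.0% were accessible, and of the others 38.9%. Among the members, these counts were 1 of 2 and 2 of 4. *Pax7* was one of 483 CpG-rich starts that were not accessible. *Pax3* and *Pax7* lay close to the limit of the rule, and neither met it with a ratio of 0.75.

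**Figure D2:**
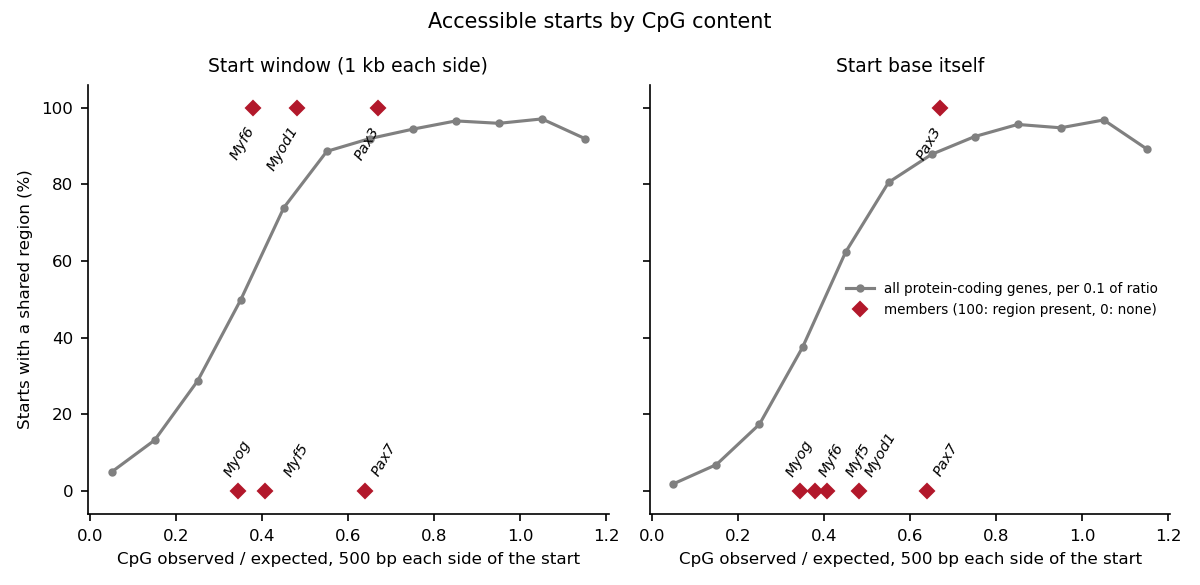
Share of protein-coding starts with a shared region (y axis, percent) by the ratio of observed to expected CpG around the start (x axis), within 1 kb of the start (left) and on the start base (right). Grey points are bins of all protein-coding genes and red diamonds the 6 genes, placed at 100 where a region was present and at 0 where none was. *Myf6* and *Myod1* move from 100 on the left to 0 on the right.

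All 6 loci, taken as the gene body with 50 kb on each side, held at least 1 shared region, as did 88.7% of protein-coding loci. There were 25 regions in all. Per 100 kb, *Pax7* had 1.02, *Myod1* 2.92, *Pax3* 3.57, *Myf5* 5.81, *Myf6* 5.89 and *Myog* 6.83, with a median of 4.69 beside 5.46 for all protein-coding genes. *Myf5* and *Myf6* entered this median as separate loci although they held the same 6 regions, so it is not a median of independent loci. In replicate 2 alone, *Pax7* had 4 peaks in place of 2 shared regions, *Myog* 10 in place of 7 and *Myod1* 5 in place of 3, one of them at 41.7 kb. *Pax3* had 7 in both counts, and *Myf5* and *Myf6* had 6. *Pax7* (percentile 16.5), *Myod1* (29.2) and *Pax3* (33.9) were below the median of all genes, and *Myf5* (53.1), *Myf6* (53.9) and *Myog* (61.0) above it. By base pairs covered by shared regions, all 6 loci were below it, with *Myf5* at percentile 40.3, *Myf6* at 40.7 and *Myog* at 45.3. With flanks of 25 kb in place of 50 kb, the median of the 6 genes was 5.704 beside 5.475 for all genes, so its position relative to all genes turned. The mean fold enrichment of the 25 regions ran from 3.81 to 14.99 with a median of 5.47, beside 6.29 over all shared regions, and 9 of the 25 exceeded that value. Shared regions lay in the body of 4 of the 6 genes, beside 72.9% of protein-coding genes, the exceptions being *Myog* and *Pax7*.

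**Figure D3:**
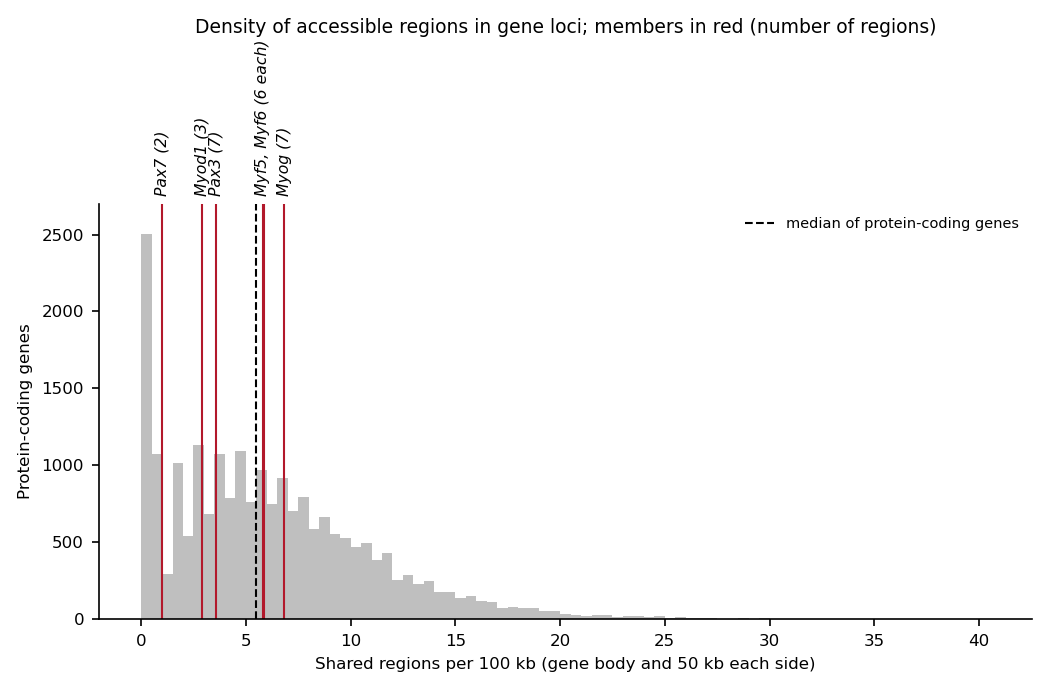
Number of protein-coding genes (y axis) by shared regions per 100 kb of gene body and 50 kb on each side (x axis). Red lines are the 6 genes with their number of regions, and the dashed line is the median of all protein-coding genes. The red lines run from 1.02 (*Pax7*) to 6.83 (*Myog*), on both sides of the median of 5.46.

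Of the 25 regions, 14 (56.0%) lay outside protein-coding genes, beside 37.4% of all shared regions. A further 4 lay at the start of a member, 3 in an intron of a member, 2 at the start of *Kcnc1* or *Ppfia4* and 2 elsewhere in *Ppfia4*. Starts of protein-coding genes thus held 6 of the 25 (24.0%), beside 14.59% of all shared regions. The 150 bp on each side of the summits were searched on both strands for 6 motifs. The E-box CANNTG was present in 19 of 25 regions (76.0%) beside 78.8% of all shared regions, and CAGCTG, one form of it, in 7 of 25 beside 24.1%. GGAATG, the site of TEAD factors, was present in 6 of 25 beside 20.4%, and AGGTGT, a T-box half-site, in 2 of 25 beside 12.8%. AGATAA, a site of GATA factors, was in 2 of 25 beside 22.2%, and the MEF2 consensus in 1 of 25 beside 5.01%. For the narrow *Myf6* region, the point midway between the summits fell in the wider region. A CpG ratio of at least 0.6 was found in 7 of the 25 regions, beside 15.6% of all. In the 200 bp before the start, CANNTG was present in 4 of the 6 genes beside 55.3% of protein-coding genes. *Pax3* and *Myf5* held none of the 6 motifs there, *Myod1* and *Pax7* held CAGCTG (9.92% of protein-coding genes), *Myog* AGATAA (6.81%) beside its E-box, and *Myf6* the MEF2 consensus (1.98%). GGAATG (9.14%) and AGGTGT (9.48%) were in none of the 6.

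Other genes of the myogenic network were described as lists, beside the 64.0% of all protein-coding genes with an accessible start. Of 15 genes that act upstream of the bHLH factors or in migration of muscle progenitors, 14 were accessible. By class these were 9 of 10 CpG-rich starts and 5 of 5 others, beside 95.0% and 38.9% over all genes. Fold enrichment was 29.9 in replicate 1 and 26.1 in replicate 2 at *Eya1*, which encodes a transcriptional coactivator. It was 26.6 and 22.6 at *Meox2*, a homeobox gene of the somite, and 3.80 and 4.02 at *Meox1*. *Eya2* had a peak in replicate 1 alone (4.62). The partners of the bHLH factors were accessible in 6 of 7, with 4 of 4 CpG-rich starts and 2 of 3 others. Values were 28.2 and 26.1 at *Tcf3*, 31.5 and 29.2 at *Tcf4* and 17.4 and 19.9 at *Tcf12*, which encode the E proteins. *Mef2c* was the exception at its outermost start. All 7 partners were accessible when any annotated transcript start was allowed, beside 68.12% of all protein-coding genes. The 10 inhibitors of myogenic bHLH factors were all accessible, with 7 of 7 CpG-rich starts and 3 of 3 others. Among them were *Id1* (22.5 and 23.4), *Id3* (20.6 and 20.1), *Hey1* (41.02 and 42.99) and *Twist2* (7.33 and 5.53). The median of the replicate means over accessible starts was 26.9 for the partners, 21.7 for the inhibitors and 15.4 for the upstream genes, beside 5.40 for the 3 accessible members. In the remaining lists it was 9.88 for the skeletal muscle targets, 21.6 for the cardiac regulators, 12.99 for the cardiac structural genes, 11.53 for the neural bHLH genes, 7.01 for the other Pax genes and 14.1 for the neural crest markers.

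Of 28 genes that skeletal muscle uses downstream of these factors, 13 were accessible. In 14, no peak lay within 1 kb of the outermost start in either replicate, a count given without its share over all genes. With any annotated transcript start, 16 were accessible, beside 68.12% of all protein-coding genes. The highest values were 42.6 and 36.5 at *Mylpf*, a fast myosin light chain, 35.6 and 28.7 at *Actn3*, 25.3 and 21.9 at *Cav3* and 17.4 and 19.6 at *Ckm*. In 3 of these windows the start of another protein-coding gene lay within 1 kb, namely *Tbc1d10b* at *Mylpf*, *Zdhhc24* at *Actn3* and *Klc3* at *Ckm*, so that these peaks cannot be assigned to one gene. Only 2 of the 28 starts were CpG-rich. Accessible starts made 46.4% of this list, beside 64.0% of all protein-coding genes. With a window of 5 kb the direction turned, with 21 of 28 beside 70.99% of all genes, and on the start base itself 7 of 28 beside 58.53% held a region. Among its other starts 11 of 26 were accessible, beside 38.9% of such starts over all genes.

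Markers of heart muscle were described too. Their lists were chosen with earlier results of these data known, so they are no independent check of the heart label. Of 10 genes listed as structural markers of heart muscle, 10 were accessible, beside 64.0% of all protein-coding genes. The list includes *Pln* and the hormone gene *Nppa*. Fold enrichment was 25.0 and 20.9 at *Tnnt2*, 13.9 and 12.8 at *Myh6* and 17.9 and 14.8 at *Nppa*. None of these 10 starts was CpG-rich, and of starts that are not 38.9% were accessible over all genes. Cardiac regulators were accessible in 7 of 9, with 3 of 4 CpG-rich starts and 4 of 5 others. The exceptions at the outermost start were *Nkx2-5* and *Tbx5*. All 9 were accessible with any transcript start, beside 68.12% of all protein-coding genes. Their loci held a median of 10.3 regions per 100 kb, and the structural genes 15.6, beside 4.69 for the 6 myogenic regulators. For the other lists, the median was 10.2 for the inhibitors, 9.32 for the skeletal muscle targets, 8.74 for the partners, 7.48 for the other Pax genes and 6.80 for the upstream genes.

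Genes of related families and of other cell types were described in the same way. Of 7 neural bHLH genes, 5 were accessible, with 17.4 and 16.8 at *Atoh1*, and all 7 starts were CpG-rich, a class of which 95.0% were accessible over all genes. Of the 7 other Pax genes, 3 were accessible at the outermost start, *Pax1* (10.3 and 10.1), *Pax9* (5.98 and 8.04) and *Pax6* (3.80 and 4.27), and 5 at any transcript start, beside 64.0% and 68.12% of all protein-coding genes. By class, 2 of their 3 CpG-rich starts and 1 of 4 others were accessible. Neural crest markers were accessible in 2 of 6, with 0 of 1 CpG-rich start and 2 of 5 others, beside 38.9% of such other starts over all genes. These were *Ednrb* (20.6 and 19.4) and *Tfap2b* (8.69 and 7.79). The neural crest count lay between 1 and 5 over 11 alternatives. With replicate 2 alone it was 4 of 6 beside 65.17% of all protein-coding genes. A window of 5 kb gave 5 of 6 beside 70.99%, where the direction turned, and a window of 0.5 kb gave 1 of 6 beside 62.35%. *Sox10* and *Tfap2a* had no peak at the outermost start in either replicate, and *Foxd3* had one in replicate 2 alone (6.03). Their part in the signal at *Pax3* was not tested. The median density of the neural bHLH loci was 4.86 and that of the neural crest loci 4.76, next to the 4.69 of the myogenic regulators. The value of 4.69 counts the same regions under both *Myf5* and *Myf6*. No difference between lists was tested.

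**Figure D4:**
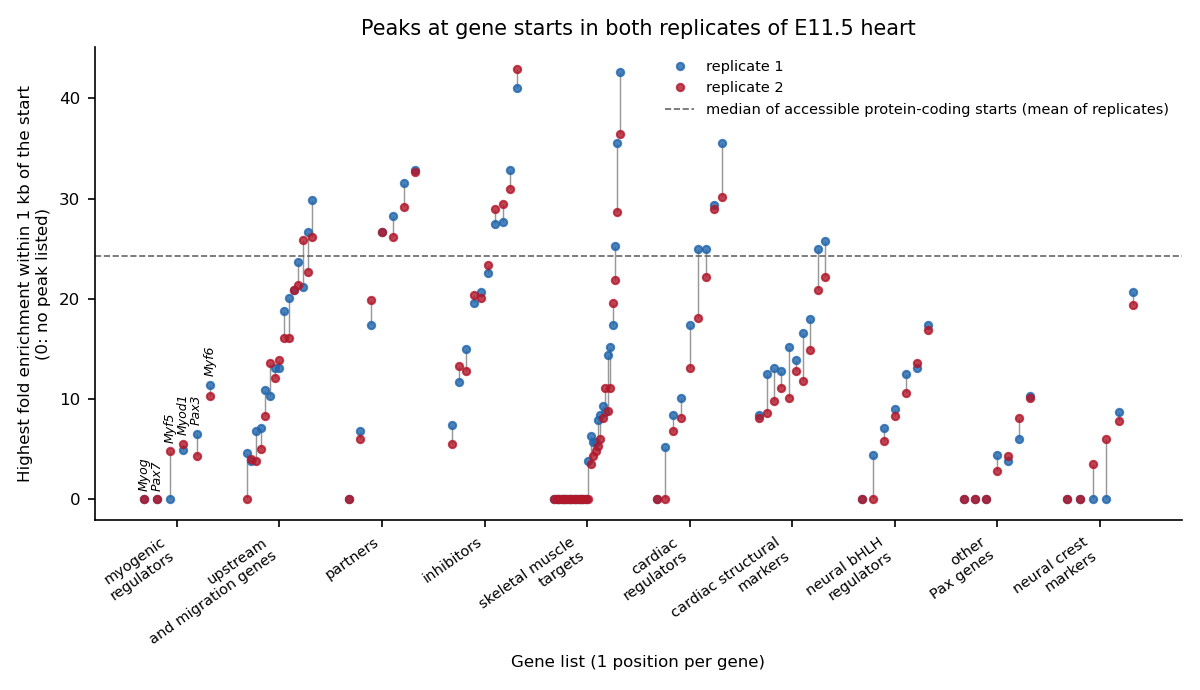
Highest fold enrichment of a peak within 1 kb of the start (y axis) for each gene of the lists (x axis, 1 position per gene), in replicate 1 (blue) and replicate 2 (red), with 0 where no peak was listed. The dashed line is the median over accessible protein-coding starts of 24.3. The myogenic regulators reach at most 11.4, and in 6 of the other lists, the upstream genes, partners, inhibitors, skeletal muscle targets, cardiac regulators and cardiac structural markers, some starts pass the dashed line in at least 1 replicate.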

How the data were processed

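Open chromatin of WT FVB embryonic hearts was measured at E11.5 by ATAC-seq in 2 replicates. The authors trimmed single-end reads (Trim Galore 0.6.6, Cutadapt), aligned them to GRCm38/mm10 (Bowtie2 2.4.2), discarded duplicate and poorly mapped reads (SAMtools 1.12), which leaves fewer reads on repeated sequence, and called peaks per replicate with MACS2 without a local background. Reads of the FVB strain were placed on a C57BL/6J reference. The deposited fold enrichment is a ratio at the summit of each peak. The deposited −log10 p and −log10 q come from MACS2 too, and the authors' score rescales −log10 q to whole numbers. The lists were used as deposited; their largest p-values and shortest peaks differ from the limit and read extension that the methods state.

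Replicate 1 peaks were trimmed to their overlap with replicate 2 peaks (at least 1 bp) and merged where they touch (bedtools 2.31.1). Genes came from GENCODE M21 and sequence from the GRCm38.p6 genome and promoter table of RefSeq, in which 3 of the 6 genes were matched (*Myog*, *Pax7* and *Myf5*; the entry of *Pax7* lies in annotated untranslated sequence and is not printed). Background reads were recovered from the steps of fold enrichment. The lists give no totals, so no counting interval was computed. The members and gene lists were chosen with earlier results of these data known. Named regions are those within 10 kb of a member start, those in a member body and the 3 with the highest mean in each locus, with others added to complete a locus after their values were seen; named list genes are the 4 highest and 2 lowest at the start, or any gene of a list of up to 10. From the lists of 15 and 28 genes, no others were named. Alternatives covered overlap, thresholds, single replicates, windows, summits, transcript starts and flanks. On simulated peaks, the overlap code found 4200 of 4200 planted overlaps. Scripts ran under Python 3.11.15 with pandas 2.3.3, NumPy 2.4.6, Numba 0.67.0 and Matplotlib 3.10.9. Some genes of the lists are not reported here by name.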

Additional observations from a re-analysis of the deposited data

How the results depend on the processing

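No paired analysis was possible because both replicates belong to a single group. The count of members with an accessible start was 3, lay between 1 and 4 over 11 alternatives, and fell to 1 with a q-value limit of 1e-10, where *Pax3* and *Myod1* were lost, and to 1 on the start base itself, a setting added after the data were seen. The start of *Myog* and that of *Pax7* were not accessible under any of the 11 alternatives. *Myf5* became accessible with windows of 2 and 5 kb and with replicate 2 alone. The share of protein-coding genes with an accessible start, 64.0%, was 62.56% when overlaps had to cover 50% of both peaks, 63.67% with p-values of at most 0.00001, 59.14% with the q-value limit, 65.17% to 65.28% with 1 replicate left out, 62.35%, 66.33% and 70.99% with windows of 0.5, 2 and 5 kb, 61.18% with summits in the window, 68.12% with any transcript start and 58.53% on the start base.

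The q-value limit left 5 of the 25 regions and 1 member with a region in its body. The shares of all shared regions and of all gene bodies under this limit are not given, so these counts have no background beside them. The median was 0.9747 regions per 100 kb beside 2.764 for all genes. Flanks of 100 kb gave 48 regions and a median of 3.461 beside 5.454 for all genes, flanks of 25 kb a median of 5.704 beside 5.475, where the members stood above all genes, and gene bodies alone 7 regions and a median of 17.06 beside 5.837 for all genes, since 1 region in a short body counts as a high density. Reciprocal overlap gave medians of 3.724 and 4.728, and the p-value limit 5.075 for all genes. With 1 replicate left out, the medians ran from 4.855 to 5.342 for the members and from 6.231 to 6.334 for all genes. By base pairs covered, the median value of the members stood at percentile 34.95 of all genes, in place of 43.64 by regions. Under the p-value limit, *Pax7* kept 1 of its 2 regions.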
